A study of Homo sapiens with 2 samples.

Results

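The genes described here encode 9 S100 calcium-binding proteins: S100A6, S100A8, S100A9, S100A10, S100A11, S100A13, S100A14, S100A16 and S100P. They were chosen by symbol, with earlier results of these data known, and all 9 were found among the 46732 genes listed. RNA was sequenced from secondary mammospheres of the human breast cancer line T47D, which is luminal and carries the estrogen receptor. The cells were grown for 7 days as primary floating spheres and, after passage, for 7 more days as secondary ones. One library was labelled CIC knockdown and the other control, with 1 library per group; the design text mentions duplicates, and whether a column pools them is not stated. How the knockdown was made is not stated in the labels. CIC, or capicua, keeps target genes silent until signalling through ERK relieves it, and the comparison asks what differs in mammospheres when it is knocked down.

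S100 proteins are small proteins with a pair of EF-hands, helix-loop-helix folds that hold calcium. Most work as dimers that open on binding calcium and then grip a target protein, often an annexin or a part of the cytoskeleton. Some also leave the cell and act on receptors such as RAGE. Many members are expressed in epithelia and have been followed as markers in breast cancer.

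The library labelled CIC knockdown held 68420805 estimated counts and the control library 47099221. CIC mRNA had 872 counts in the library labelled CIC knockdown and 607 in the control library. The ratio of normalised counts was 0.98, with a 95% interval of 0.882 to 1.09 that covers counting error only, so CIC mRNA was not lower where the label says knockdown, and each library is called by its label. ETV5 and ETV4, textbook targets that CIC represses, stood at 1268 and 557 counts in the library labelled CIC knockdown, against 174 and 81 in the control library. All 10 luminal epithelial markers examined had counts in both libraries, and the basal keratin genes KRT5 and KRT14 had 0 in both. A group of 1 library allows neither a replicate check nor a p-value, and each ratio describes these libraries only. In bulk RNA, fewer cells that express a gene and less of its RNA per cell cannot be told apart.

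Levels of the 9 genes, in TPM (a unit that corrects for transcript length and library depth), differed widely. S100P was the most abundant, at 459.5 TPM in the library labelled CIC knockdown and 451.8 TPM in the control library, ranks 101 and 109 among all listed genes. It supplied 38.9% of the summed TPM of the 9 genes in the library labelled CIC knockdown and 36.4% in the control library. S100A13 and S100A10 came next, at 168.4 and 165.0 TPM in the library labelled CIC knockdown, against 178.6 and 183.0 TPM in the control library. S100A11, S100A16, S100A14 and S100A6 lay between 84.7 and 106.9 TPM in the library labelled CIC knockdown, and between 85.5 and 120.9 TPM in the control library. S100A9 stood at 6.51 TPM in the library labelled CIC knockdown and 17.4 TPM in the control library, and S100A8 was the lowest, at 0.737 and 3.49 TPM in the same order. The order of S100A13 and S100A10 differed between the libraries, as did that of S100A11, S100A16 and S100A14. Without replicates, neighbours in these orders cannot be ranked.

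**Figure D1:**
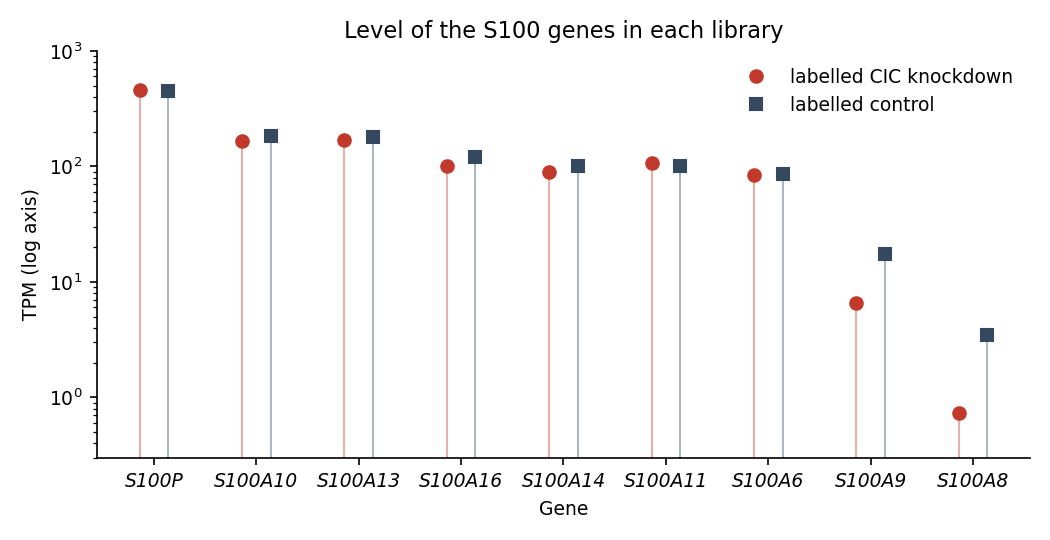
Level of each gene in TPM on a log axis, in the library labelled CIC knockdown (red circles) and the control library (dark squares), 1 library each. S100P leads in both, 6 genes lie near 100 TPM, and S100A9 and S100A8 are the members whose levels visibly separate.

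S100A8 and S100A9, the subunits of calprotectin, were the members that differed most, and both were lower in the library labelled CIC knockdown. Calprotectin binds zinc and manganese, limits microbial growth, and is abundant in neutrophils and in wounded or inflamed epithelium. S100A9 lies on chromosome 1 from 153357854 to 153361023 (gene 6280, build GRCh38, as for all positions given). It had 248 counts in the library labelled CIC knockdown and 462 in the control library, although the control library was the shallower one. That is 3.61 against 9.85 CPM (normalised counts scaled to a common library size), a ratio of 0.366 (95% counting interval 0.312 to 0.428) and a log2 ratio of -1.44. S100A8 (gene 6279, chromosome 1, 153390032 to 153422583) had 20 counts in the library labelled CIC knockdown and 66 in the control library. Its 0.291 CPM against 1.41 CPM gave a ratio of 0.207 (0.119 to 0.345) and a log2 ratio of -2.15. The interval of S100A8 is wide because it rests on 20 and 66 counts. Taken as if both mates of each read pair had been counted, the intervals were 0.292 to 0.457 for S100A9 and 0.0909 to 0.429 for S100A8, still below 1.

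Within each library the partners were not at equal levels. S100A9 had 8.83 times the length-corrected level of S100A8 in the library labelled CIC knockdown and 4.99 times in the control library. All S100A8 counts belonged to 1 of its 5 annotated transcripts, transcript variant 4, and S100A9 has a single annotated transcript. The S100A9 value could therefore not move with a division of reads among transcripts of the same gene. For S100A8, the placing of all counts on 1 transcript was itself estimated. S100A8 overlaps S100A7A, which had 0 counts in both libraries.

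The sequence before the start of these transcripts is shown for S100A8 and S100A9, whose RNA differed, and for S100P, whose RNA did not differ beyond counting error. Each is the 100 bases that end just before the start site, from the RefSeq promoter table on GRCh38.p14, with the letters TATAAA in capitals where they lie 45 to 20 bases before the start on the strand of the gene. S100A8 (transcript variant 4) is chr1:153391074-153391173 on the minus strand, S100A9 is chr1:153357754-153357853 on the plus strand, and S100P is chr4:6693778-6693877 on the plus strand.
S100A8: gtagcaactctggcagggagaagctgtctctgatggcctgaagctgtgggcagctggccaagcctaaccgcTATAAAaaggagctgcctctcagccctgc
S100A9: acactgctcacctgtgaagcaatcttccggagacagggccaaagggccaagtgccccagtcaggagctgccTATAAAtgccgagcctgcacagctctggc
S100P: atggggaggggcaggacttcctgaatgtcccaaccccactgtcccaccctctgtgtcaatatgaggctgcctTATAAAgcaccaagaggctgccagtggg
TATAAA began 29 bases before the start in S100A8 and S100A9 and 28 bases before it in S100P. This search was chosen after the sequences had been seen. It found the letters in 4 of 14 windows of the 9 genes, the other being a window of S100A13 whose start matches no S100A13 transcript of the deposited table, and in 2.33% of all 35116 windows. The letters thus stood before genes that were lower and before a gene that was not. The windows of S100A8, S100A9 and S100P held few CpG pairs (2, 5 and 5 in 300 bases). Windows without TATAAA held few as well in S100A14 (5) and S100A16 (3 and 8), and more in S100A10, S100A6 and S100A11 (32, 31 and 22). The S100A13 window with TATAAA held 11, and the other S100A13 windows held 12 and 19.
The letters TGAATGAA and TGAATGGA, which CIC binds, were searched on both strands of the 300-base windows, from 250 bases before to 50 after each start, and so was TGAGTCA, the AP-1 site, which reads TGACTCA on the other strand. None of the 14 windows held any of them, against 2.63% of all windows for either CIC motif and 4.95% for the AP-1 motif. No match says only that these letters are not in these windows. For S100A13, only the window of transcript variant 1 was set at a start of the deposited table. No window was set at its other starts.

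The 7 abundant genes lay close to equal levels, and 4 of them were slightly lower in the library labelled CIC knockdown beyond counting error. By the interval alone, 27.3% of all genes with at least 100 counts were lower and 33.8% were higher. S100A16 (gene 140576, chromosome 1, 153606883 to 153613137), a broadly expressed member, had 7888 counts in the library labelled CIC knockdown and 6594 in the control library, a ratio of 0.816 (0.790 to 0.843). Its neighbour S100A14 (gene 57402, 153614255 to 153616917), an epithelial member, had 6201 and 4938 counts in the same order and a ratio of 0.856 (0.825 to 0.889). S100A10 (gene 6281, 151982915 to 151993859) encodes p11, which joins annexin A2 in a complex under the plasma membrane. It had 7338 counts in the library labelled CIC knockdown and 5686 in the control library, a ratio of 0.880 (0.850 to 0.911). The lncRNA gene LOC105371441, which overlaps S100A10, had 62 and 53 counts in the same order. S100A13 (gene 6284, 153618799 to 153634361), which takes part in the release of FGF1 from cells, had 8321 counts in the library labelled CIC knockdown against 6085 in the control library. Its ratio was 0.933 (0.902 to 0.964). S100A16 differed most of these 4, at 1.23-fold lower, and no spread between cultures is at hand to set them against.

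For the other 3 abundant genes the interval included an equal level. S100P (gene 6286, chromosome 4, 6693878 to 6697170), a secreted member that also binds ezrin inside the cell, had 14346 counts in the library labelled CIC knockdown and 9856 in the control library. The ratio was 0.993 (0.968 to 1.02), and the sign of its log2 ratio of -0.01 changed with the scaling. S100A6 (gene 6277, chromosome 1, 153534599 to 153536049), or calcyclin, had 2453 and 1728 counts in the same order and a ratio of 0.968 (0.910 to 1.03). S100A11 (gene 6282, 152032506 to 152037004), a partner of annexin A1, had 3991 counts in the library labelled CIC knockdown and 2616 in the control library, a ratio of 1.04 (0.990 to 1.09). S100A11 was the only one of the 9 genes with a ratio above 1 in the normalised counts. All 4 listed S100A11 pseudogenes had at most 2 counts per library, so few of the counts assigned to the family went to these copies.

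Summed over the 9 genes, normalised counts were 739.1 CPM in the library labelled CIC knockdown and 811.2 CPM in the control library, a ratio of 0.911 (0.899 to 0.923). Without S100A8 and S100A9 the ratio was 0.919 (0.907 to 0.931). S100A8 and S100A9 together made up 3.90 CPM in the library labelled CIC knockdown and 11.3 CPM in the control library. In TPM the 9 genes summed to 1182 in the library labelled CIC knockdown and 1242 in the control library, and they made up 99.3% of the TPM of all 21 S100 genes listed in each library.

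Read against all genes, S100A9 and S100A8 had ratios that few genes reached, and those of the other 7 were within the common range. Of 13722 genes with at least 100 counts in 1 library, 3.43% were at least 1.5-fold lower in the library labelled CIC knockdown with an interval below 1, and 4.28% at least 1.5-fold higher with an interval above 1. Among the 8 genes of the family with that many counts, 1 was lower by this rule, S100A9, and 0 were higher. S100A9 was also past 2-fold, as were 0.962% of all genes in the lower direction and 1.17% in the higher direction. Its log2 ratio was matched or exceeded on the low side by 48 of the 13722 genes, 0.350% of them. S100A8 had fewer than 100 counts in both libraries. With a minimum of 20 counts, 64 of 17677 genes were as low as S100A8, 0.362% of them, and S100A8 met that minimum in both libraries. At that minimum, 6.43% of genes were at least 1.5-fold lower and 6.82% at least 1.5-fold higher with an interval on that side of 1. By the interval alone 25.3% were lower and 29.8% higher. By the interval alone, 5 of the 8 genes were lower and 0 higher, beside 27.3% lower and 33.8% higher among all genes. An interval narrows as counts rise, so a small difference passes more readily in an abundant gene. The share over all genes was not matched for counts, here or for the lists below. The median log2 ratio was -0.14 over the 8 genes and 0.02 over all 13722.

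**Figure D2:**
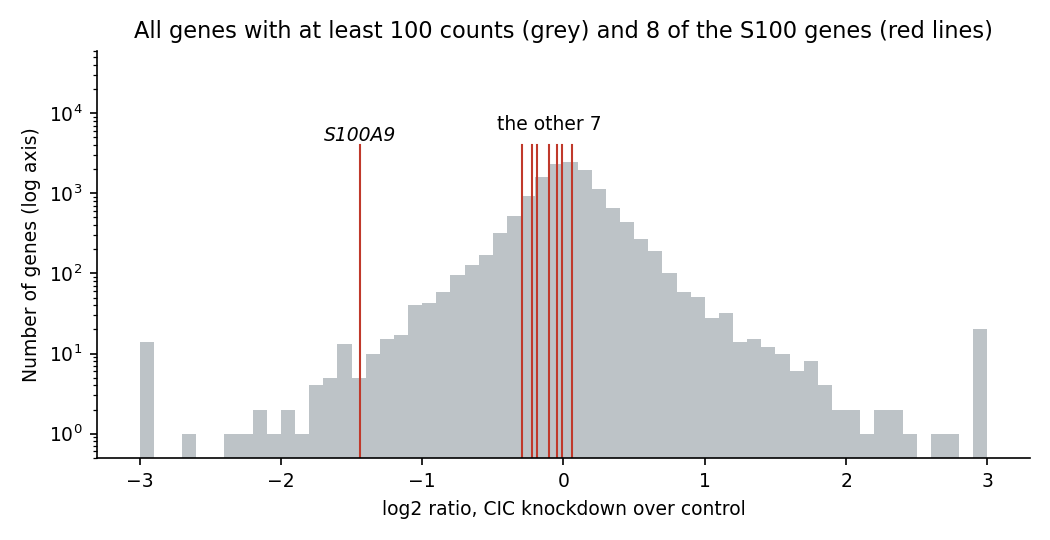
Number of genes (log axis) by log2 ratio of CIC knockdown over control for all genes with at least 100 counts in 1 library; values beyond 3 in either direction are drawn in the end bars. Red lines mark the 8 S100 genes with that many counts, with S100A9 at -1.44 and the other 7 between -0.29 and 0.06.

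Of the 9 genes, 8 lie on the long arm of chromosome 1, in a stretch of 1651 kb that holds 17 S100 genes. S100A9 and S100A8 lie there with S100A12 between them, and S100A7A, S100A7L2 and S100A7 follow, in a block of 103 kb. S100A7 (psoriasin), an antimicrobial protein of skin and of some breast cancers, had 0 counts in the library labelled CIC knockdown and 9 in the control library. Set against a floor of 3 counts in the library with 0, S100A7 was at least 4.40 times lower; the counting interval of the ratio, which also allows for error in the 9 counts, ran from 0 to 0.346. The other 3 genes of the block had 0 counts in both libraries. The nearest S100 genes outside the block were S100A11 before it, at a log2 ratio of 0.06, and S100A6 after it, at -0.05.

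Among the 12 other S100 genes, 7 had 0 counts in both libraries, which allows up to 0.0436 CPM in the library labelled CIC knockdown and 0.0640 CPM in the control library. S100A4 (metastasin), known for its part in cell movement, had 278 counts in the library labelled CIC knockdown and 176 in the control library, a ratio of 1.08 (0.889 to 1.31). S100A2, a gene of basal epithelium, had 31 and 35 counts in the same order and a ratio of 0.604 (0.360 to 1.01). S100A1 had 7 counts in the library labelled CIC knockdown and 8 in the control library, and S100A3 had 2 and 0, too few to compare. S100PBP, whose product binds S100P, had 1811 and 1164 counts in that order and a ratio of 1.06 (0.985 to 1.14).

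**Figure D3:**
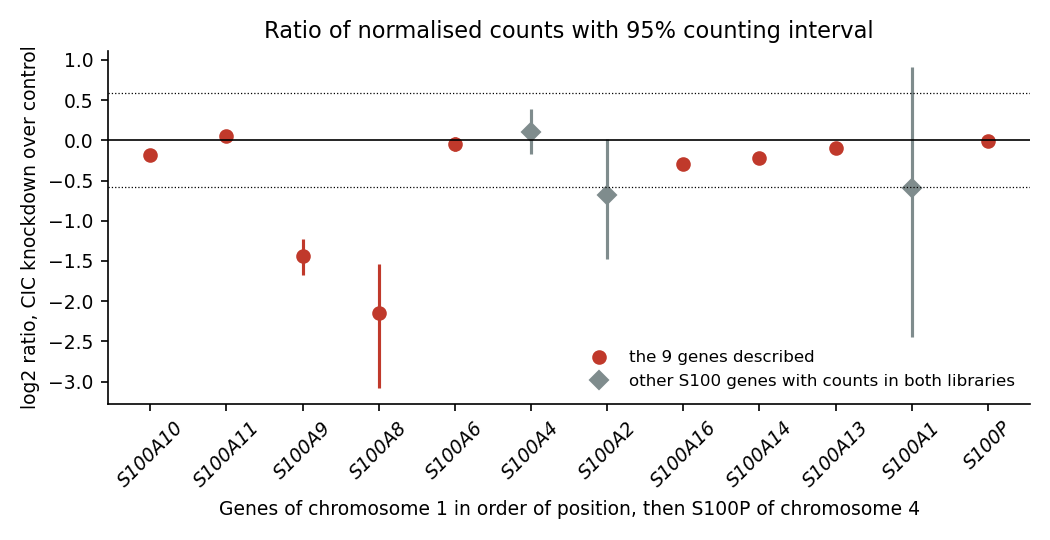
Log2 ratio of CIC knockdown over control for the S100 genes with counts in both libraries, in order along chromosome 1 and with S100P of chromosome 4 last; vertical lines are 95% counting intervals and dotted lines mark 1.5-fold. S100A9 at -1.44 and S100A8 at -2.15 lie below the lower dotted line with their whole intervals, between S100A11 and S100A6 near 0.

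S100A13 was the member with the most transcripts, 12 in the table, and their shares of its counts differed between the libraries while the gene did not differ by much. All 12 share a 3′ end and differ in where they begin, at 9 positions numbered here from the one nearest that end. Start 6 (transcript variant X5, 776 bases) held 1642 counts in the library labelled CIC knockdown and 327 in the control library. That was 19.7% of the gene's counts (Clopper-Pearson 95% interval 18.9 to 20.6) in the library labelled CIC knockdown and 5.37% (4.82 to 5.97) in the control library. Start 4 (transcript variant 3, 613 bases) held 169 and 788 counts in the same order, or 2.03% (1.74 to 2.36) against 12.9% (12.1 to 13.8). Start 3, the most used in both, held 21.3% in the library labelled CIC knockdown and 21.7% in the control library.

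In all, 18.6% of the S100A13 counts would have to move between transcripts to make the shares equal. Among 3492 genes with at least 1000 counts in both libraries and at least 5 transcripts with counts, the median of this measure was 19.7%, and 52.1% of them had a value at least as high as S100A13. The shares of S100A13 thus moved about as far as those of other genes of that kind. They were estimated by dividing coverage among overlapping transcripts, an error that the intervals leave out. S100A13 also overlaps S100A1, which lies within its locus from 153628434 to 153632039, and CHTOP at its far end. CHTOP, an mRNA export factor, had 3951 counts in the library labelled CIC knockdown and 3010 in the control library. The authors' assembly added 3 splice variants of S100A13, which together held 472 counts in the library labelled CIC knockdown and 673 in the control library, a ratio of 0.478 (0.424 to 0.539). With them, S100A13 had 8310 and 6066 counts in the same order. Of the other members with several transcripts in use, S100A6, S100A14 and S100A16, none moved more than 1.46% of its counts between transcripts.

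**Figure D4:**
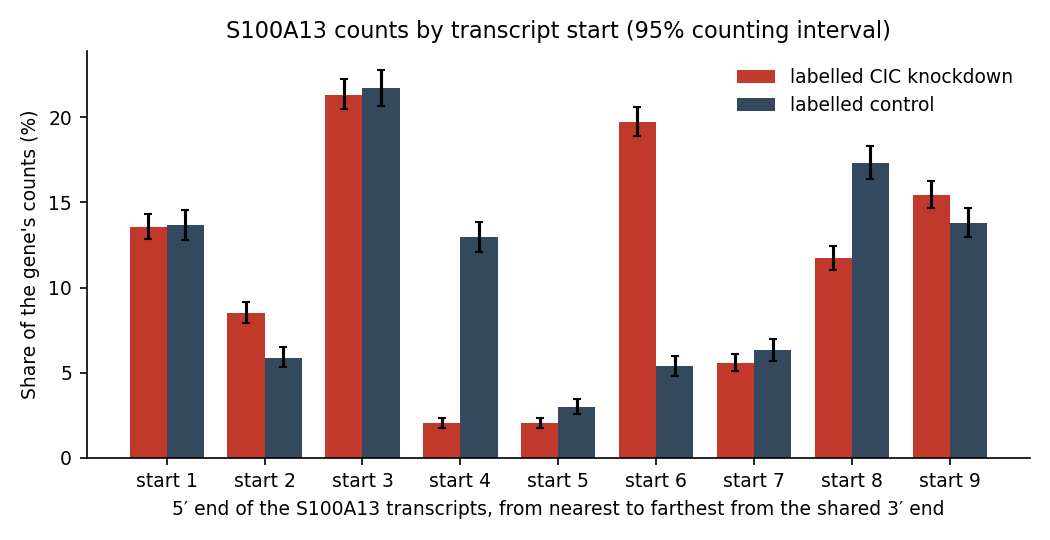
Share of the S100A13 counts, in percent, held by transcripts that begin at each of 9 positions, in the library labelled CIC knockdown (red) and the control library (dark); error bars are 95% counting intervals. Start 6 is higher at 19.7% against 5.37%, start 4 is lower at 2.03% against 12.9%, and start 3 is nearly equal.

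Proteins that S100 members bind were close to equal levels for the most part. Of 19 partner genes, 14 had at least 50 counts in 1 library, and by their intervals 5 were higher and 9 were lower, beside 32.0% higher and 26.6% lower among all 15303 genes with that many counts. Their median log2 ratio was -0.09, against 0.02 for all genes. ANXA2, the annexin that binds S100A10, had 28587 counts in the library labelled CIC knockdown and 20226 in the control library, a log2 ratio of -0.05. AHNAK, a large scaffold that binds the same complex, stood at -0.17, close to S100A10 at -0.18. ANXA1, the partner of S100A11, was the 1 partner past 1.5-fold, with 794 counts in the library labelled CIC knockdown and 919 in the control library, a ratio of 0.589 (0.535 to 0.649). By comparison, 4.75% of all genes with at least 50 counts were lower and 5.46% higher by the 1.5-fold rule. Higher values were found for TPM1, a tropomyosin, at a log2 ratio of 0.28 and for ANXA11, an annexin that S100A6 binds, at 0.26. PLAT, the tissue plasminogen activator, an enzyme that forms plasmin at S100A10, stood at -0.37 with 171 and 151 counts.

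Receptors for secreted S100 proteins ranged from abundant to nearly absent. AGER, which encodes RAGE, had 115 counts in the library labelled CIC knockdown and 88 in the control library, a ratio of 0.891 (0.669 to 1.19). TLR4, a receptor for calprotectin, had 0 and 3 counts in that order, at the floor. Of 7 receptors, 5 had at least 50 counts, and 1 was higher, 2 lower and 2 overlapped a ratio of 1 by interval. Among all genes with that many counts, 32.0% were higher and 26.6% lower. ALCAM, an adhesion molecule, had the largest absolute log2 ratio of the 5, with 47935 counts in the library labelled CIC knockdown and 44957 in the control library, a log2 ratio of -0.46. BSG (basigin) stood at -0.11 and CD36, with 120 and 104 counts, at -0.34 with an interval that included 1.

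Among 24 other EF-hand genes, 21 were measured, of which 7 were higher and 12 lower by interval, beside 32.0% higher and 26.6% lower among all genes, with a median log2 ratio of -0.06. CALM2 and CALM3, which encode the widely used calcium sensor calmodulin, stood at -0.03 and 0.29. CALML5, a calmodulin-like protein of skin, was the only one of the 21 past 1.5-fold, a size at which 4.75% of all genes were lower, with 2128 counts in the library labelled CIC knockdown and 2658 in the control library, a ratio of 0.546 (0.516 to 0.578). RCN1, a calcium-binding protein of the endoplasmic reticulum, stood at -0.41, CALML4 at -0.33 and NUCB2 (nucleobindin) at -0.30.

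Genes of antimicrobial defence and wound keratins, which are often expressed with calprotectin in stressed epithelium, went both ways. Of 15, 8 had at least 50 counts, and 2 were higher, 3 lower and 3 overlapped a ratio of 1 by interval, with a median log2 ratio of -0.04. Among all genes with that many counts, 32.0% were higher and 26.6% lower. Past 1.5-fold, 2 of the 8 were lower, KRT6A and SLPI, beside 4.75% of all genes. KRT6A, a keratin induced in wounds, had 40 counts in the library labelled CIC knockdown and 105 in the control library, a ratio of 0.26 (0.176 to 0.377). SLPI, a secreted protease inhibitor, had 38 and 58 counts in the same order and a ratio of 0.447 (0.289 to 0.684). KRT6A and SLPI passed the minimum through the control library only. CSTA and CSTB, intracellular protease inhibitors, were higher at log2 ratios of 0.36 and 0.15, and SERPINB1 stood at -0.05. LCN2, a siderophore-binding defence protein, had 78 and 45 counts in that order and a ratio of 1.18 (0.809 to 1.75). SLPI and LCN2 were named after their values had been seen.

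**Figure D5:**
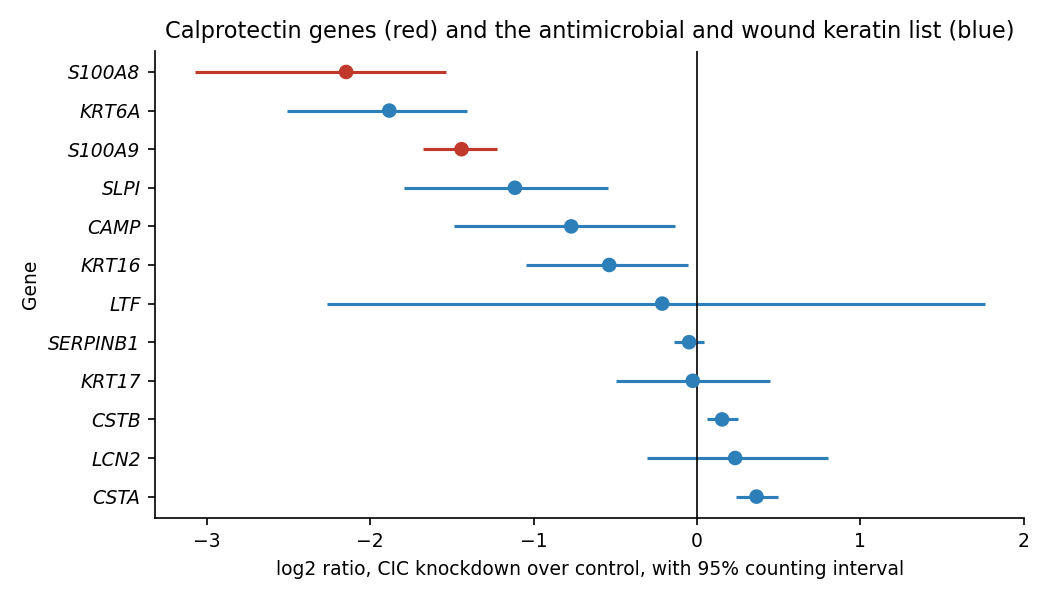
Log2 ratio of CIC knockdown over control for S100A8 and S100A9 (red) and for the genes of the antimicrobial and wound keratin list with counts in both libraries (blue); horizontal lines are 95% counting intervals. KRT6A at -1.88 lies between S100A8 and S100A9, while CSTA at 0.36 lies on the other side of 0.

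The fused S100 and cornified envelope genes that lie between S100A11 and S100A9 were almost silent. Of 15 such genes, 10 had 0 counts in both libraries and 1 reached 50, TCHH (trichohyalin, named after its values had been seen), with 82 counts in the library labelled CIC knockdown and 50 in the control library, a ratio of 1.12 (0.777 to 1.62). SPRR3, a cornified envelope protein named after its values had been seen, had 23 and 36 counts in the same order and a ratio of 0.436 (0.247 to 0.756).

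Since neutrophils and monocytes are rich in calprotectin, markers of myeloid cells were counted as well. Of 14, 7 had 0 counts in both libraries, among them PTPRC, MPO, ELANE, CSF3R and FCGR3B, the defining genes of leukocytes and neutrophils. The whole list summed to 4.73 CPM in the library labelled CIC knockdown and 5.33 CPM in the control library, a ratio of 0.887 (0.750 to 1.05). CD68 had 146 counts in the library labelled CIC knockdown and 89 in the control library, and ITGB2, a leukocyte integrin subunit, had 144 and 142, a ratio of 0.692 (0.545 to 0.878). Markers with few counts went both ways and were named after their values had been seen. In the same order, LYZ had 14 and 2 counts and CD14 had 8 and 0, while CSF1R had 0 and 5. ITGAM had 8 and 9, and FCER1G had 5 and 3. The basal and squamous markers summed to 180.4 CPM in the library labelled CIC knockdown and 172.0 CPM in the control library, most of it from ITGB4. Within that list CAV1 stood at a log2 ratio of -0.91, MYLK at 0.68, ITGB4 at 0.11 and VIM at 0.05. The luminal markers summed to 13622 CPM in the library labelled CIC knockdown and 13833 CPM in the control library, with PGR, the progesterone receptor gene, at a log2 ratio of 1.05, TFF1 at -0.19, FOXA1 at 0.18 and CDH1 at 0.13. The part of any of these cells in the S100A8 and S100A9 values was not tested.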

How the data were processed

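The authors deposited tables with 1 column per library for each unit. The estimated counts, headed read counts per the file headers, were deposited by the authors as whole numbers, so no rounding was needed; they are taken as estimated because the notes name StringTie. FPKM and TPM values were computed by the authors. Per the submitters' processing notes, the tools were Trimmomatic, HISAT2 and StringTie and the build GRCh38, versions not given. KD columns were matched to the CIC knockdown sample by title, and C columns are the control; 0 columns of per-sample values were left without a sample. Labels give no batch.

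Library sizes were scaled by TMM factors (edgeR 4.0.16, R 4.3.3): 1.00 for CIC knockdown and 0.995 for control. Log2 ratios are CIC knockdown over control with a prior count of 2. Linear ratios are of normalised counts, with exact Clopper-Pearson 95% intervals conditional on the summed count. Intervals and floors (3 counts) cover counting error only. PCR copies are not independent molecules, and whether reads or fragments were counted is not stated. No test was possible with 1 library per group. The size rule asked for at least 100 counts in 1 library, at least 1.5-fold either way and an interval on 1 side of 1. The procedure was tested on simulated data, which held counting error only and no spread between cultures. Alternatives were total counts, DESeq2 1.42.0 size factors, prior counts of 0.5 and 5, TPM, FPKM, the table with assembled transcripts, halved counts and other minimum counts.

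Genes named were the 9 members, other S100 genes with a count, overlapping genes and pseudogenes, CIC, ETV4 and ETV5, up to 4 genes per list with the largest absolute log2 ratio at 100 counts, and ANXA2, AHNAK, CALM2 and CALM3; a further gene of this rule is not reported here. Members and lists were chosen with earlier results of these data known. Names outside this rule were chosen after their values were seen. Promoter windows are RefSeq's (GRCh38.p14), and all 9 genes matched. Protein sequences were not analysed here.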

Additional observations from a re-analysis of the deposited data

How the results depend on the processing

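Each of the 9 log2 ratios was recomputed under 8 alternatives, and every one stayed within its counting interval. S100A9 ranged from -1.45 to -1.42 and S100A8 from -2.26 to -1.99. S100P ranged from -0.01 to 0.02, so its sign depended on the scaling. The number of members past 1.5-fold was 2 in place of 1 with no minimum count and with a minimum of 20 counts, since S100A8 then entered. It was 1 under the others, S100A8 being too low for the minimum. The summed log2 ratio of the members was -0.13 in counts, -0.072 in TPM and -0.091 in FPKM, outside its counting interval; the cause was not tested. TPM and FPKM give no interval, so the number with an interval below 1 had no value there. No paired analysis was possible because each group has 1 library. For the same reason no replicate could be left out. Depth limits the ratio of S100A8, which rests on 20 counts in the library labelled CIC knockdown and 66 in the control library, and those of the S100 genes with fewer counts.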

Other observations

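Genes of squamous and basal epithelium with low counts differed in both directions, and those given here were named after their values had been seen. TP63, a master factor of basal and squamous epithelium, had 8 counts in the library labelled CIC knockdown and 38 in the control library, a ratio of 0.144 (95% counting interval 0.0579 to 0.312). KRT6B, a wound keratin, had 0 and 15 counts in the same order. KRT16 had 71 counts in each, which at these depths is a ratio of 0.682 (0.484 to 0.961). CAMP, an antimicrobial peptide gene, had 36 counts in the library labelled CIC knockdown and 43 in the control library, a ratio of 0.571 (0.356 to 0.910). Of other genes of the kind, KRT17 had 95 and 66 counts in that order and a ratio of 0.982 (0.710 to 1.37), and FLG (filaggrin), a gene of cornified skin, had 10 and 0. IVL and TCHHL1, also genes of cornified skin, had 6 and 4 counts in the library labelled CIC knockdown and 0 in the control library. The basal and squamous marker list as a whole summed to a ratio of 1.05 (1.02 to 1.08). Most of that sum was ITGB4, with 10760 of 12401 counts in the library labelled CIC knockdown and 6797 of 8065 in the control library. The summed ratio therefore does not give the direction of the other genes of that list. Some of the genes named here were picked because they were low, so their direction is a description of these libraries only. Among all 17677 genes with at least 20 counts in 1 library, 6.43% were at least 1.5-fold lower and 6.82% at least 1.5-fold higher, with an interval on that side of 1. TP63 reached 20 counts in the control library only. KRT6B, FLG, IVL and TCHHL1 reached it in neither library, so these shares do not cover them.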
